A study of Mus musculus with 15 samples.

Results

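Serial passage of lung fibroblasts lacking Atm was followed in 6 of the 15 RNA libraries of the series. They are the 3 untreated Atm-/- libraries labelled passage 8 and the 3 labelled passage 2, chosen by genotype and passage alone. The other groups were untreated Atm+/+ cells at passages 2 and 8, and Atm+/+ cells at passage 2 harvested 10 days after 10 Gy of X-rays, with 3 libraries each. All were primary fibroblasts from C57BL/6 mice, grown at 3% oxygen, and each genotype was represented by 3 separately established strains. The labels give neither the age and sex of the mice nor the part of Atm that the null allele removes. Titles number the libraries 1 to 3 at each passage, and a number is read here as the same strain at both, so replicates 1, 2 and 3 below are strains. The comparison asks how the transcriptome of Atm-/- cells changed with serial culture, and Atm+/+ values are set beside it where the difference between genotypes was tested.

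Atm is a kinase that is activated by DNA double-strand breaks and phosphorylates p53, Chk2 and many repair proteins, and its loss in humans causes ataxia-telangiectasia. Mouse fibroblasts kept in culture divide for a limited time and then slow or stop, a state called replicative senescence, in which the Cdkn2a products p16Ink4a and p19Arf accumulate, secreted factors change and S phase and mitotic genes are repressed. Lung fibroblasts also make the collagen scaffold of the organ, and can take up contractile proteins of smooth muscle when they become myofibroblasts.

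Library totals ran from 34373573 to 36053896 counts at passage 2 and were 34015366, 31044955 and 13645592 counts in passage 8 replicates 1, 2 and 3. Values listed in this way are in the order of the replicates. The passage 8 replicate 3 library stood apart. At equal depth it held reads for 15037 genes, against 20633 to 21347 in the other 5 Atm-/- libraries, 1.85% of its counts lay in ribosomal and miscellaneous RNA genes, and its correlations of log2 CPM with the other passage 8 libraries were 0.892 and 0.895, against 0.982 between those. CPM are counts scaled to a common library size after normalisation. Counts of the gene lists are therefore also given without this library where that moved them by more than 1.5 times, and calls of named genes where it ended them. Replicate 3 held 140 CPM of the X inactivation transcript Xist at passage 2 and 162 CPM at passage 8, with Ddx3y and Kdm5d of the Y chromosome at 0. Replicates 1 and 2 had at most 0.102 CPM of Xist at both passages. Atm was at 1.61, 0.966 and 1.91 CPM at passage 2 and at 0.873, 1.09 and 2.37 CPM at passage 8, with a log2 fold change of -0.09 (SE 0.53, adjusted p = 0.926, edgeR). Since the deleted part is not given, this level is no check of the genotype. Among Atm+/+ libraries, which enter the differences between genotypes, passage 2 replicate 3 was also low in complexity. It held reads for 17252 genes at equal depth, against 20101 to 21107 in the other untreated Atm+/+ libraries. Its total was 23605046 counts, with 0.732% in ribosomal and miscellaneous RNA genes.

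Among 18167 genes tested, edgeR called 2362 (13.0%) different between the passages at an adjusted p under 0.05. Of these, 864 (4.76%) were higher and 1498 (8.25%) were lower at passage 8, and 417 and 1216 of them changed at least 2-fold. The median log2 fold change of all genes tested was -0.08. For 6723 genes (37.0%) the passage 8 libraries did not overlap the passage 2 libraries, with 2635 (14.5%) above them and 4088 (22.5%) below. Without passage 8 replicate 3 edgeR called 2798 genes, 1148 higher (6.16%) and 1650 lower (8.86%), and 2064 of the 2362 genes were among them with the same sign. On log2(TPM + 1), TPM being a deposited unit scaled for transcript length, limma gave a median of -0.319 over all genes and called 329 genes higher and 1991 lower, in a fit that also changed the test and the genes tested. With DESeq2 size factors in edgeR, which changed the scaling alone, 814 were higher and 1551 lower. The passage effect differed between Atm-/- and Atm+/+ cells for 804 genes (4.43%), of which 446 (2.46%) had a higher effect without Atm and 358 (1.97%) a lower one. With the replicate number entered as a strain (a replicate block) 144 genes differed, and the count ran from 79 when Atm+/+ passage 8 replicate 3 was omitted to 4600 when Atm+/+ passage 2 replicate 2 was. Named genes whose difference passed are therefore given with the number of fits that lost it.

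Among the gene lists, those of macrophage, endothelial and pericyte markers had the lowest medians. Of 21 macrophage markers, 19 fell, 0 rose and 2 did not pass, with a median log2 fold change of -6.74, or -6.49 with the 2 genes at 0 in every passage 8 library set at their bound. All 16 endothelial markers fell, with a median of -4.33, and 7 of 10 pericyte markers fell, with a median of -3.73, or -3.27 with 1 gene at its bound. Over all genes tested the median was -0.08 and 8.25% fell. In bulk RNA, fewer cells of a type and less RNA per cell cannot be told apart.

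Summed over the list, macrophage markers stood at 1740, 1160 and 1080 CPM at passage 2 and at 48.3, 61.9 and 44.8 CPM at passage 8. Lyz2, the lysozyme of phagocytes, was at 1069, 713 and 667 CPM and then at 16.9, 27.3 and 13.7 CPM, a log2 fold change of -5.40 (SE 0.37, adjusted p = 2.6e-06, edgeR). Its passage 8 libraries all lay far below its passage 2 libraries and none reached 0. The scavenger receptor gene Marco went from 43, 43 and 44.4 CPM to 0.0873, 0.0642 and 0 CPM, with 5 reads in all at passage 8. The defining genes Adgre1, which encodes the F4/80 antigen, and Ptprc, which encodes the leukocyte antigen CD45, were at 0 in the 3 passage 8 libraries. Cd163 and Cx3cr1 did not pass, at -2.14 and -0.59.

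Endothelial markers summed to 633, 788 and 964 CPM at passage 2 and to 36.7, 53 and 82.9 CPM at passage 8. Cdh5, the cadherin of endothelial junctions, was at 61.2, 99.2 and 120.3 CPM and at 1.83, 3.24 and 0 CPM, and Robo4, an endothelial guidance receptor, at 22.9, 31.9 and 41.5 CPM and 0.291, 0.674 and 1.14 CPM. Cdh5 fell by 5.63 (SE 0.88, adjusted p = 0.00074, edgeR) and Robo4 by 5.68 (SE 0.61) on the log2 scale. Endothelial transcripts at passage 8 remained detectable, and Cdh5 was at 0 in replicate 3 alone. The pericyte markers Rgs5, a regulator of G protein signalling, and Kcnj8, a potassium channel subunit, fell by 6.68 (SE 0.73) and 4.11 (SE 0.35). Pdgfrb, the PDGF receptor shared by pericytes and fibroblasts, had a log2 fold change of -0.17 and did not pass, and the pericyte sum went from 932, 958 and 1120 CPM to 564, 686 and 674 CPM.

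**Figure D1:**
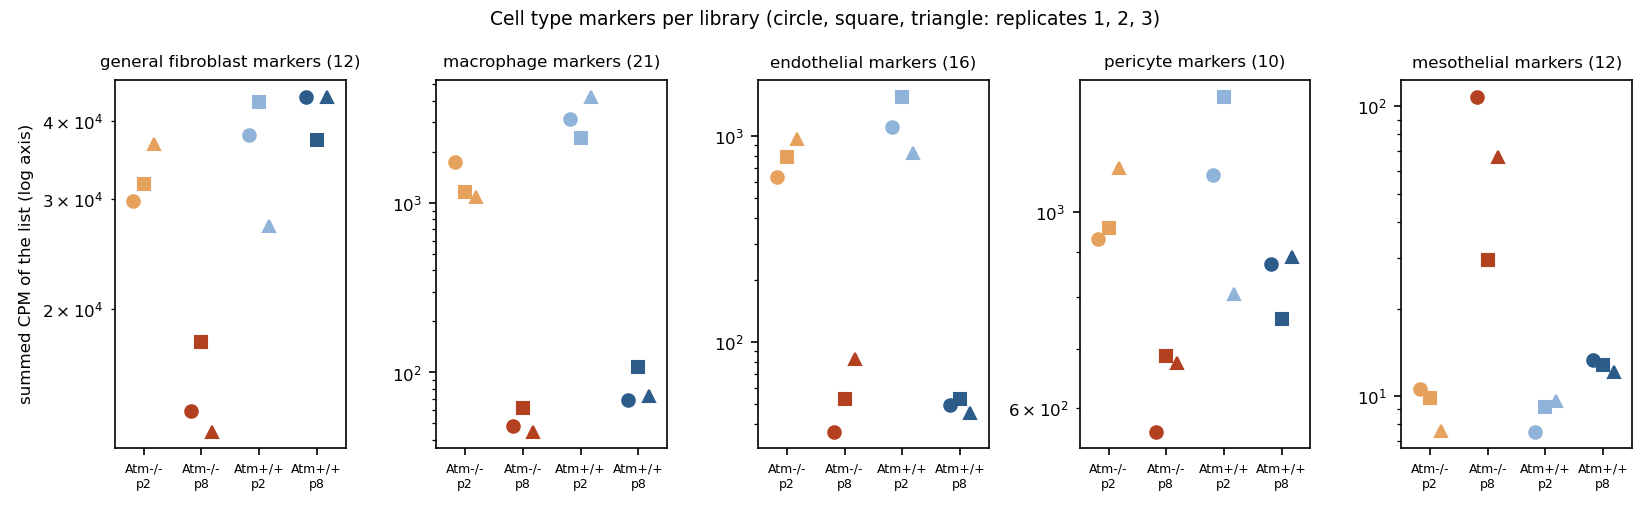
Summed CPM of 5 marker lists (log axis, number of genes in the list in brackets) in each library of Atm-/- (orange and red) and Atm+/+ (blue) cells at passages 2 and 8, with circle, square and triangle for replicates 1, 2 and 3. Macrophage sums lay at 1080 to 1740 CPM in Atm-/- passage 2 and at 44.8 to 61.9 CPM in passage 8, and general fibroblast sums at 29800 to 36800 CPM and at 12700 to 17700 CPM.

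The same markers were low in Atm+/+ cells at passage 8, where macrophage sums lay between 68.6 and 108 CPM and endothelial sums between 45.3 and 52.8 CPM. The median passage effect there was -6.24 for macrophage and -6.37 for endothelial markers. The difference between genotypes passed for 2 of 21 macrophage markers, Mpeg1 with a higher and Marco with a lower effect without Atm. It passed for 3 of 16 endothelial markers, each with a higher effect without Atm. Among all genes 2.46% had a higher and 1.97% a lower effect. Marco had a difference of -3.48 (SE 0.71, adjusted p = 0.0235, edgeR), and this call was lost in 5 of 15 fits that left out 1 library and with the replicate block (adjusted p = 0.0578). Epithelial markers stood at 11.5 to 14.2 CPM in sum at passage 2 and at 7.67 to 10.3 CPM at passage 8, with 4 of 16 at 0 in every passage 8 library.

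Markers of mesothelium, the lining of the lung surface, moved the other way from low levels. Of 9 tested, 5 rose, 0 fell and 4 did not pass, with a median of 2.77, where 4.76% of all genes rose. Summed over 12 genes they stood at 10.6, 9.84 and 7.58 CPM at passage 2 and at 108, 29.5 and 66.9 CPM at passage 8. Msln, the surface protein mesothelin, was at 0.498, 0.407 and 0.136 CPM and then at 40.8, 6.68 and 18.9 CPM, a rise of 5.98 on the log2 scale (SE 0.82, adjusted p = 0.000279, edgeR). Upk3b, a uroplakin, was at 0, 0.0254 and 0 CPM, which was 1 read, and at 5.62, 2.6 and 2.28 CPM. Krt19, a simple epithelial keratin, rose by 2.77 (SE 0.36), while the other keratin genes of the list, Krt8 and Krt18, did not pass at -2.31 and -0.57. The mesothelial transcription factor gene Wt1 did not pass either, at -1.31. Lrrn4, Muc16 and Gpm6a were at 0 in every passage 8 library. Against the mean of passage 2 the median tested member stood at 3.294, 1.742 and 0.02 in passage 8 replicates 1, 2 and 3. Passage 8 replicate 1 had the highest mesothelial sum and replicate 2 the lowest. Whether mesothelial cells were present, or had a part in other results, was not tested.

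General fibroblast markers kept high levels, as the label of the cells states, but they were lower at passage 8. Their sum over 12 genes was 29800, 31700 and 36800 CPM at passage 2 and 13700, 17700 and 12700 CPM at passage 8, and in Atm+/+ cells at passage 8 it was 37300 to 43800 CPM. Of the 12 genes 6 fell, among them the surface antigen gene Thy1 and collagens described below, S100a4 rose and 5 did not pass, among them Vim, the gene of the intermediate filament vimentin. Among all genes 8.25% fell and 4.76% rose. The 6 that fell became 4 without passage 8 replicate 3, and Thy1 did not pass (-0.41, adjusted p = 0.126, edgeR).

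Several markers of resident lung fibroblast subsets also fell. Of 28 tested, 12 (42.9%) fell, 0 rose and 16 did not pass, where 8.25% of all genes fell and 4.76% rose. The median was -0.87 against -0.08 over all genes. Pdgfra, the receptor that marks alveolar and adventitial fibroblasts, was at 362, 472 and 423 CPM at passage 2 and at 86.1, 173 and 113 CPM at passage 8. It fell by 1.75 (SE 0.22, adjusted p = 0.000144, edgeR) without overlap, and its Atm+/+ effect was -0.11 (SE 0.21), a difference of -1.65 (SE 0.31, adjusted p = 0.017, edgeR). Npnt, which encodes the basement membrane ligand nephronectin, fell by 3.58 (SE 0.43), from 74.4, 93.2 and 86 CPM to 7.27, 11.1 and 2.19 CPM. Cd34, a sialomucin of adventitial fibroblasts and of endothelium, fell by 3.19 (SE 0.46), and its effect was -6.52 (SE 0.54) in Atm+/+ cells, where it was at 1.03, 1.15 and 1.29 CPM at passage 8. The difference between genotypes in Cd34 and in Npnt did not pass with the replicate block (adjusted p = 0.0523 and 0.0581, edgeR). The mesenchymal transcription factor gene Tcf21 fell by 1.48 (SE 0.41), and did not pass without passage 8 replicate 3 (-1.35, adjusted p = 0.0769, edgeR). The transcription factor genes Foxf1 and Tbx4 did not pass, at -0.08 and -1.08. The count of 12 became 7 without passage 2 replicate 3 and 7 without passage 8 replicate 1, and 1 rose without passage 8 replicate 1 or 2 or without Atm+/+ passage 2 replicate 2 or 3.

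Inhibitors of cyclin-dependent kinases did not move as 1 group. Of 7 tested, Cdkn2a and Cdkn2b rose, Cdkn1b fell and 4 did not pass, where 4.76% of all genes rose and 8.25% fell. The median was -0.33, and 2 fell without passage 8 replicate 2. Cdkn2a, whose alternative first exons give the Cdk4 and Cdk6 inhibitor p16Ink4a and the Mdm2 antagonist p19Arf, was at 19.5, 10.9 and 11.2 CPM at passage 2. At passage 8 it was at 239, 138 and 194 CPM, so that the lowest passage 8 library lay well above the highest passage 2 library. The log2 fold change was 3.78 (SE 0.45, adjusted p = 8.9e-05, edgeR) and was 3.79 without passage 8 replicate 3. Cdkn2b, which encodes the related inhibitor p15Ink4b and lies beside Cdkn2a, was at 13.6, 13.1 and 14.2 CPM and then at 63.8, 37.2 and 51.4 CPM, a rise of 1.90 (SE 0.20, adjusted p = 4.4e-05, edgeR). In both genes replicate 1 was the highest and replicate 2 the lowest of the passage 8 libraries, and no library overlapped between passages.

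Cdkn1a, the p53-induced inhibitor p21, was at 458, 428 and 361 CPM at passage 2 and at 532, 526 and 436 CPM at passage 8. Its libraries overlapped, and its log2 fold change of 0.26 (SE 0.13) did not pass (adjusted p = 0.21, edgeR). Cdkn1b, which encodes the Cdk2 inhibitor p27Kip1, went from 38.8, 39.8 and 43.7 CPM to 18.4, 30.1 and 18 CPM and fell by 0.88 (SE 0.17, adjusted p = 0.00378, edgeR). Cdkn1c, Cdkn2c and Cdkn2d had log2 fold changes of -1.45, -1.28 and -0.33 and did not pass. Every passage 8 library lay below every passage 2 library in 4 of the 7 inhibitors, as in 22.5% of all genes. Every one lay above in 2, as in 14.5% of all genes. Without passage 8 replicate 3 and Atm+/+ passage 2 replicate 3, edgeR called 3 of the 7 higher and 4 lower. That fit called 27.2% of all genes.

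In Atm+/+ cells Cdkn2a went from 15.4, 9.42 and 29.5 CPM to 53.1, 37.4 and 52.3 CPM, an effect of 1.40 (SE 0.41). The effect in Atm-/- cells was larger by 2.38 (SE 0.58, adjusted p = 0.041, edgeR). For Cdkn2b the effects were 1.90 and 0.70 (SE 0.20), a difference of 1.19 (SE 0.28, adjusted p = 0.0359, edgeR). Both differences kept their sign in all 27 alternative fits, but either call was lost in 11 of the 15 fits that left out 1 library, with adjusted p up to 0.120 and 0.109. With the replicate block the adjusted p was 0.0267 for Cdkn2a and 0.0670 for Cdkn2b.

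The counts of Cdkn2a cover both of its first exons, so p16Ink4a and p19Arf cannot be told apart. The 250 bases before each annotated start on chromosome 4 (minus strand, GRCm38.p6, RefSeq) are shown because the 2 neighbouring genes that rose have 3 separate starts within a short stretch. They are the p19Arf start at chr4:89294620-89294869, the p16Ink4a start at chr4:89282193-89282442 and the Cdkn2b start at chr4:89311033-89311282. Capitals mark matches to TTTCCCGC, a form of the E2F site, or to TTTGAA, the cell cycle homology region (CHR), searched with CCAAT, a box bound by NF-Y, on both strands.
p19Arf start of Cdkn2a: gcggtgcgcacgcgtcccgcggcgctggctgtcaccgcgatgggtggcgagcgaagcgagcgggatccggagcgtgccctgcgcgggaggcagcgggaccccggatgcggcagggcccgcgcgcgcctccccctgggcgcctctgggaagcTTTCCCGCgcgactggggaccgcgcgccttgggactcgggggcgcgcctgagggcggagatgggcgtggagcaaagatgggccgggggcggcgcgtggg
p16Ink4a start of Cdkn2a: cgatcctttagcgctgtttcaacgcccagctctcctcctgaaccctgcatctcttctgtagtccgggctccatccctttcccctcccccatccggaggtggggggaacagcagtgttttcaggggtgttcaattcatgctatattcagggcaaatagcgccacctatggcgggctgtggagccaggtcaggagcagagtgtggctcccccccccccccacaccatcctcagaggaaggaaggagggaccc
Cdkn2b: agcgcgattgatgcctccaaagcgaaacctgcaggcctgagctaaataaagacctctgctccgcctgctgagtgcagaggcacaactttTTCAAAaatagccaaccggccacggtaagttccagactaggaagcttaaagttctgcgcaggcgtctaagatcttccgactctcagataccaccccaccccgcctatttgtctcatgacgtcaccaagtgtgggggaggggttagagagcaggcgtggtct
The p19Arf window is rich in G and C and holds 1 match to TTTCCCGC, which 0.895% of 32851 promoters of this length hold. The p16Ink4a window holds 0 matches to the 3 motifs, and the Cdkn2b window holds 1 match to TTTGAA on the reverse strand, as do 16% of promoters on either strand. A match describes these letters only.

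**Figure D2:**
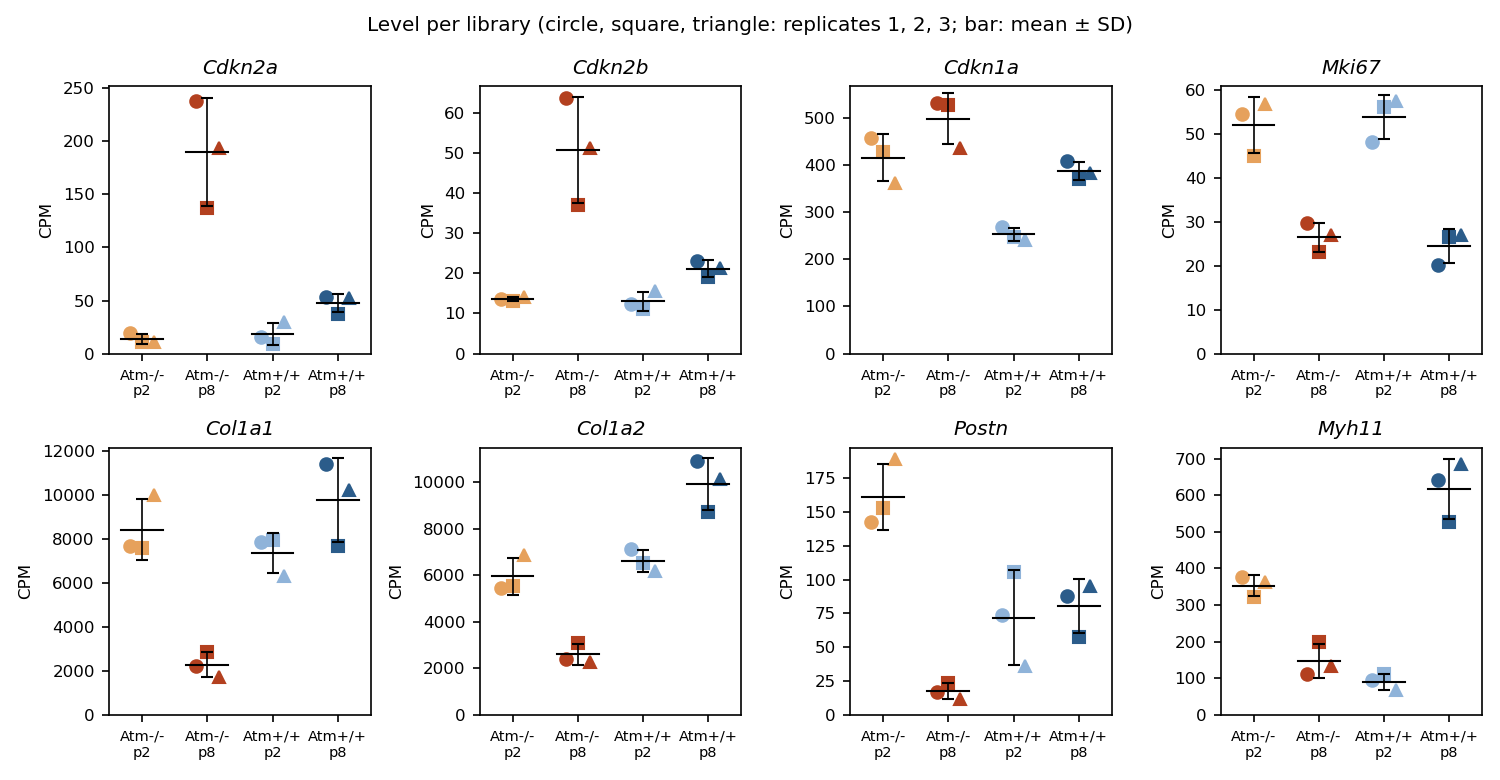
CPM of 8 genes in each library of the 4 untreated groups (circle, square and triangle for replicates 1, 2 and 3, bar for mean ± SD, n = 3). Cdkn2a lies at 138 to 239 CPM in Atm-/- passage 8 and at 53.1 CPM or less in every other library shown, while Col1a1 lies at 1745 to 2862 CPM in Atm-/- passage 8 and at 6323 CPM or more in the other groups.

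Genes of mitosis and G2 stood lower at passage 8, though few passed. Of 40 tested, 7 (17.5%) fell, 0 rose and 33 did not pass, where 8.25% of all genes fell. The median was -0.82 against -0.08 over all genes. In 30 of the 40 every passage 8 library lay below every passage 2 library, as in 22.5% of all genes. All 40 had a negative log2 fold change, from -1.68 to -0.27. Mki67, the proliferation antigen Ki-67, was at 54.7, 44.9 and 56.8 CPM and then at 29.6, 23.1 and 26.9 CPM, and fell by 0.97 (SE 0.18, adjusted p = 0.00209, edgeR). Top2a, the topoisomerase that untangles mitotic chromosomes, went from 82.7, 71.5 and 80.4 CPM to 48.2, 39.5 and 45.3 CPM and fell by 0.82 (SE 0.17, adjusted p = 0.0059, edgeR). Neither gene overlapped between passages, and the lowest passage 8 value was 23.1 CPM for Mki67 and 39.5 CPM for Top2a. The mitotic kinase gene Plk1 fell by 0.94 (SE 0.24) and the centromere protein gene Incenp by 1.00 (SE 0.27). In edgeR neither passed without passage 2 replicate 1, 2 or 3 or without passage 8 replicate 2. The spindle checkpoint gene Bub1b fell by 0.82 (SE 0.21), a call lost without passage 2 replicate 1 or replicate 3 (adjusted p = 0.0640 and 0.0895, edgeR).

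Against the mean of passage 2 the median member stood at -0.38 in passage 8 replicate 1, at -0.98 in replicate 2 and at -1.88 in replicate 3, so the library of lowest complexity was also the lowest for this list. Without that library 6 of 40 fell, and the median was -0.64. The count of 7 became 2, 3 and 2 without passage 2 replicates 1, 2 and 3, and 12 and 3 without passage 8 replicates 1 and 2. Effects in Atm+/+ cells had a median of -0.40, and the difference between genotypes passed for 0 of the 40 genes in edgeR and in DESeq2, with 3 at an unadjusted p under 0.05. Mki67 had an effect of -1.14 (SE 0.18) there and a difference of 0.16 (SE 0.25, adjusted p = 0.67, edgeR).

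The 250 bases before the start of Top2a (chr11:99024190-99024439, minus strand, GRCm38.p6, RefSeq) are shown as the promoter of a member that fell, with CCAAT and TTTGAA or their reverse complements in capitals.
Top2a: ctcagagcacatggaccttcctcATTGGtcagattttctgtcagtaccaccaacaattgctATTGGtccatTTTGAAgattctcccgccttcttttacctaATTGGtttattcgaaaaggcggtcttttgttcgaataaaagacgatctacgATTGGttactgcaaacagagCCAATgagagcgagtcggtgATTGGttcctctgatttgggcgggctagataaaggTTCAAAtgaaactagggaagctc
It holds 6 matches to CCAAT and 2 to TTTGAA. Among 34 promoters of the mitotic list found in the RefSeq table, 26 (76.5%) hold CCAAT and 14 (41.2%) hold TTTGAA, against 33.8% and 16% of all 32851 promoters. Among 14874 promoters of genes tested 34.9% hold CCAAT and 10.9% hold TTTGAA, and among 1365 of genes lower at passage 8 the shares are 30.9% and 10.4%. The shares describe the promoters of the list, and their relation to the change with passage was not tested.

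Few DNA replication and S phase genes passed. Of 45 tested, 1 (2.22%) rose, 3 (6.67%) fell and 41 did not pass, where 4.76% of all genes rose and 8.25% fell, and the median was -0.42. Tyms, thymidylate synthase, fell from 37.5, 34.8 and 34.7 CPM to 23.4, 23.7 and 17.3 CPM, by 0.73 (SE 0.14, adjusted p = 0.00329, edgeR). E2f1, a transcription factor of S phase entry, rose by 0.79 (SE 0.18, adjusted p = 0.00966, edgeR), from 37.4, 30.8 and 30.6 CPM to 50.2, 54.6 and 66.5 CPM. The fall of Clspn, an adaptor of Chk1 activation, by 1.12 (SE 0.32) was lost in 9 of 15 fits without 1 library and that of E2f2 by 1.45 (SE 0.40) in 3, without passage 2 replicate 1, 2 or 3. With the replicate block neither passed (adjusted p = 0.0785 and 0.0649, edgeR). Pcna and Mcm2, parts of the replication fork, stood at -0.03 and 0.02. Without each passage 2 replicate in turn 1 of the 45 fell, and 8 fell without passage 8 replicate 1. The 1 that rose became 2 without passage 8 replicate 2, or Atm+/+ passage 2 replicate 2 or 3.

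Double-strand break signalling and repair genes, the pathway in which Atm acts, gave 0 calls in edgeR in either direction among 33 tested. Their median was -0.29, and 13.0% of all genes were called. At an unadjusted p under 0.05, 4 were lower and 0 higher, and DESeq2 called 3 lower and 0 higher. In edgeR 1 was called higher and 2 lower without passage 8 replicate 3, with a median of -0.16, and 1 lower without passage 8 replicate 2. Chek2, the kinase gene Chk2 downstream of Atm, was at 9.44, 9.89 and 10.5 CPM and then at 8.5, 10.5 and 4.82 CPM, and Rad50, of the complex that recruits Atm to breaks, at 18.4, 22.3 and 19.3 CPM and 20.8, 20.1 and 11.7 CPM. Their libraries overlapped between passages, with log2 fold changes of -0.31 (SE 0.33) and -0.18 (SE 0.19).

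Of 10 nuclear lamina and high mobility group genes, which mark chromatin changes of senescence, 2 rose, 1 fell and 7 did not pass. The median was -0.44, and 4.76% of all genes rose and 8.25% fell. Hmga2, an architectural chromatin protein of fetal and senescent cells, was at 31.9, 27.6 and 27.2 CPM and then at 214, 112 and 161 CPM, and rose by 2.49 (SE 0.26, adjusted p = 4.2e-05, edgeR). Hmga1, its close relative, rose by 1.49 (SE 0.33), from 64.1, 60 and 52 CPM to 280.3, 139 and 76.5 CPM, where replicate 3 lay nearest to passage 2. Lmnb1, the lamin B1 that is often lost in senescence, went from 19.4, 22 and 21.6 CPM to 11.4, 8.19 and 0 CPM. Its libraries did not overlap, but the log2 fold change of -1.64 (SE 0.77) did not pass (adjusted p = 0.184, edgeR), and without replicate 3, where it was at 0, the change was -1.08 (adjusted p = 0.0609, edgeR). Hmgb3, at under 5 CPM in every Atm-/- library, fell by 1.55 (SE 0.42), a call lost without any 1 of the passage 2 replicates or of passage 8 replicates 1 and 2 (adjusted p from 0.0551 to 0.0888). Without Atm+/+ passage 2 replicate 2 or 3, 2 or 3 of the list fell.

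Targets of p53 had 6 members (16.7%) higher, 1 (2.78%) lower and 29 not passing out of 36, where 4.76% of all genes rose and 8.25% fell. The median of 0.16 turned to -0.255 on log2(TPM + 1). Pmaip1, the cell death gene Noxa, went from 6.67, 5.41 and 5.24 CPM to 30, 17.5 and 16.2 CPM and rose by 1.88 (SE 0.33, adjusted p = 0.00164, edgeR). Plk2, a stress-responsive kinase, rose by 0.97 (SE 0.19), Ccng1, a cyclin of the p53 response, by 0.85 (SE 0.21) and Mdm2, the ligase that degrades p53, by 0.72 (SE 0.22). Neither Ccng1 nor Mdm2 passed in edgeR without passage 2 replicate 1 or 3. Ddit4, an inhibitor of the growth kinase complex mTORC1, went from 125, 134 and 149 CPM to 33.4, 73.3 and 23.2 CPM and fell by 1.65 (SE 0.37, adjusted p = 0.00858, edgeR). In Atm+/+ cells Ddit4 had an effect of 1.05 (SE 0.36), the other sign, and the difference was -2.69 (SE 0.52, adjusted p = 0.0197, edgeR). For Plk2 the effect in Atm+/+ cells was larger, at 2.08 (SE 0.19), with a difference of -1.12 (SE 0.26, adjusted p = 0.0374, edgeR) that was lost in 11 of 15 fits without 1 library and with the replicate block (0.0986). On log2(TPM + 1) 2 rose and 3 fell. The 6 higher became 3 without passage 2 replicate 1 or 3, and 10 without passage 8 replicate 2 or without Atm+/+ passage 2 replicate 3. Without passage 8 replicate 3, 8 rose and 2 fell, and 2 fell without passage 8 replicate 1.

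Most collagen genes fell in Atm-/- cells. Of 22 tested, 14 (63.6%) fell, 2 (9.09%) rose and 6 did not pass, where 8.25% of all genes fell and 4.76% rose. The median was -1.15 against -0.08 over all genes. Col1a1, the alpha 1 chain of the fibrillar collagen I, was at 7648, 7594 and 9996 CPM at passage 2 and at 2246, 2862 and 1745 CPM at passage 8. All passage 8 libraries lay far below all passage 2 libraries, and the log2 fold change was -1.88 (SE 0.22, adjusted p = 7.7e-05, edgeR). Col1a2, the partner chain, went from 5439, 5545 and 6863 CPM to 2405, 3106 and 2291 CPM and fell by 1.19 (SE 0.17, adjusted p = 0.000313, edgeR). Col3a1, a fibrillar collagen of elastic tissues, went from 6542, 8578 and 8659 CPM to 582, 2405 and 1083 CPM and fell by 2.55 (SE 0.42, adjusted p = 0.00115, edgeR).

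The fall reached other collagen classes. The microfibrillar chains Col6a1, Col6a2 and Col6a3 fell by 1.25 (SE 0.20), 1.59 (SE 0.21) and 1.52 (SE 0.22). The basement membrane chains Col4a1 and Col4a2 fell by 1.12 (SE 0.21) and 0.84 (SE 0.16). Col15a1 and Col18a1, of vascular basement membranes, fell by 5.44 (SE 0.5) and 2.54 (SE 0.29), and their effects of -6.92 (SE 0.53) and -2.58 (SE 0.29) in Atm+/+ cells stood beside the endothelial sums, whose part in them was not tested. Col8a1, a short-chain collagen, rose by 1.67 (SE 0.29, adjusted p = 0.00153, edgeR) and Col4a5 by 1.19 (SE 0.24), from 9.89, 12.9 and 12.8 CPM to 27.1, 24.7 and 29.3 CPM. On log2(TPM + 1) Col8a1 rose and Col4a5 did not pass (adjusted p = 0.115, limma). Without passage 8 replicate 3, 15 collagens fell and 2 rose.

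The estimated passage effects of collagen I had opposite signs in the genotypes. No p-value is given for the Atm+/+ effects alone, and the Col1a1 libraries of Atm+/+ cells overlapped between passages. In Atm+/+ cells Col1a1 went from 7836, 7945 and 6323 CPM to 11370.0, 7658 and 10200.0 CPM, an effect of 0.40 (SE 0.21), and the genotypes differed by -2.28 (SE 0.30, adjusted p = 0.00333, edgeR). Col1a2 had an effect of 0.58 (SE 0.17) there and a difference of -1.78 (SE 0.24, adjusted p = 0.00333, edgeR). Across the list the median effect in Atm+/+ cells was 0.21, and for 11 of 22 collagens the effect was lower without Atm, 0 being higher, where 1.97% of all genes had a lower effect. The count ran from 3 when Atm+/+ passage 8 replicate 3 was omitted to 14 when Atm-/- passage 8 replicate 2 was, and it was 5 with the replicate block, while the calls of Col1a1 and Col1a2 held in all 27 alternative fits. Over all genes 358 had a lower effect in the main fit, and 55, 1173 and 91 with those omissions and the block.

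The 250 bases before the start of Col1a2 (chr6:4505368-4505617, plus strand, GRCm38.p6, RefSeq) are shown as the promoter of a collagen whose passage effect differed between the genotypes, with CCAAT in capitals.
Col1a2: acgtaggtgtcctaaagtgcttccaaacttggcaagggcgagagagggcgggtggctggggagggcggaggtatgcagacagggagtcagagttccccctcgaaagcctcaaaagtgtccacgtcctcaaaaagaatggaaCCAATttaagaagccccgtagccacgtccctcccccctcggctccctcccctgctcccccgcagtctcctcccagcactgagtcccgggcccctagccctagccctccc
It holds 1 match to CCAAT, as do 33.8% of all promoters, and 0 to TTTGAA and TTTCCCGC.

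**Figure D3:**
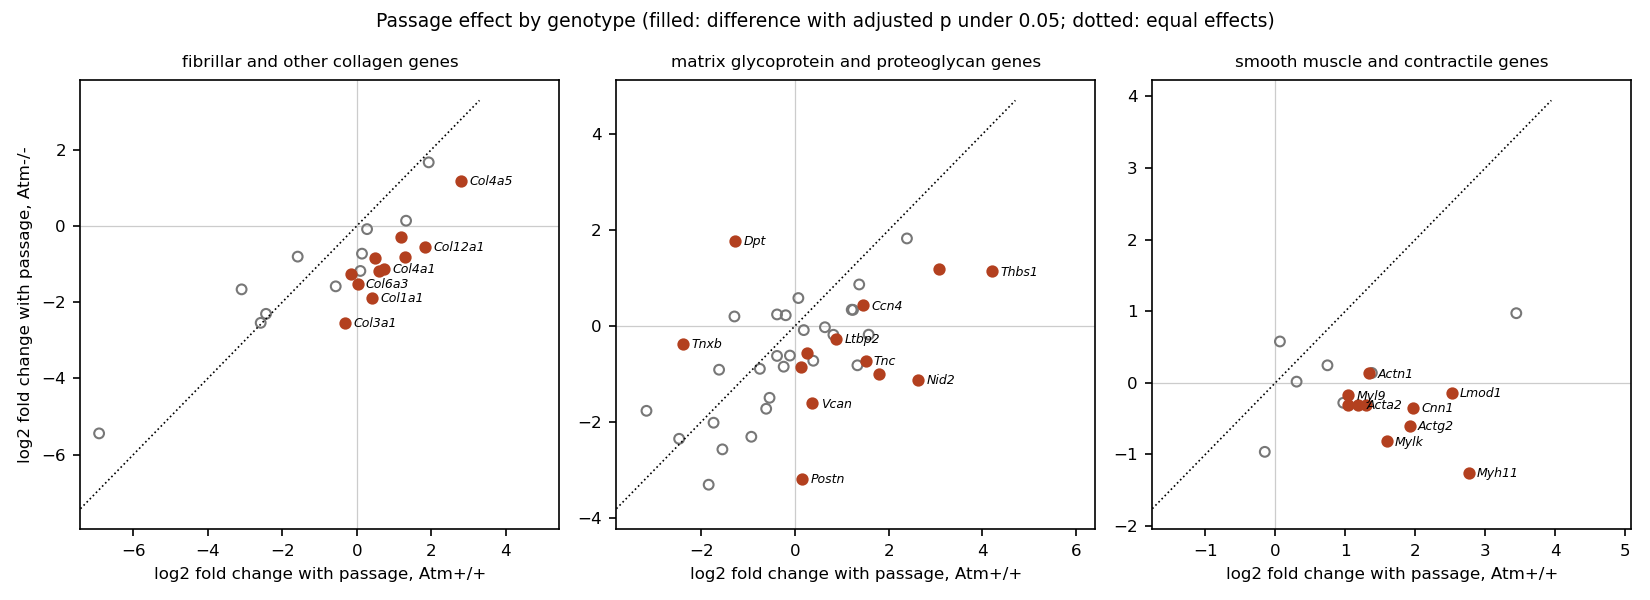
Log2 fold change from passage 2 to 8 in Atm+/+ (x axis) and Atm-/- cells (y axis) for members of 3 lists, filled where the effects differed with an edgeR adjusted p under 0.05, with a dotted line of equal effects and names where space allowed. Of the filled genes, 11 of 22 collagens and 10 of 17 smooth muscle genes lie below the line, among them Col1a1 at 0.40 and -1.88 and Myh11 at 2.76 and -1.26.

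Genes that modify and crosslink collagen were divided. Of 20 tested, 6 (30%) fell, 2 (10%) rose and 12 did not pass, where 8.25% of all genes fell and 4.76% rose. The median of -0.362 was -0.051 without passage 8 replicate 3. Bmp1, the protease that trims procollagen, was at 436, 409 and 426 CPM and then at 215, 252 and 217 CPM, and fell by 0.89 (SE 0.13, adjusted p = 0.000352, edgeR). Its effect of 0.19 (SE 0.13) in Atm+/+ cells gave a difference of -1.08 (SE 0.18, adjusted p = 0.012, edgeR). The collagen chaperone gene Serpinh1 fell by 0.71 (SE 0.15), and the prolyl hydroxylase genes P4ha3 and P3h1 by 1.43 (SE 0.30) and 0.79 (SE 0.16). Lox, the lysyl oxidase that crosslinks collagen and elastin, rose instead, from 564, 549.5 and 613 CPM to 1386, 1592 and 1423 CPM, by 1.35 (SE 0.15, adjusted p = 5.2e-05, edgeR). The effect on Lox was 1.80 (SE 0.15) in Atm+/+ cells, and the difference of -0.45 (SE 0.21) did not pass (adjusted p = 0.166, edgeR).

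Among 40 matrix glycoprotein and proteoglycan genes 15 (37.5%) fell, 5 (12.5%) rose and 20 missed the threshold, with a median of -0.62. The shares over all genes were 8.25% lower and 4.76% higher. Postn, the TGF-beta induced protein periostin, was at 142, 153 and 189 CPM at passage 2 and at 17.2, 23.4 and 12 CPM at passage 8, and fell by 3.19 (SE 0.37, adjusted p = 7.4e-05, edgeR). In Atm+/+ cells Postn went from 73.6, 106 and 35.9 CPM to 88.1, 57.6 and 94.9 CPM, and the difference of -3.35 (SE 0.49, adjusted p = 0.00671, edgeR) held in all 27 alternative fits. The proteoglycan gene Vcan fell by 1.62 (SE 0.28), Eln, the elastin gene, by 1.77 (SE 0.40), Sparc, a collagen-binding protein, by 0.85 (SE 0.14) and Ltbp4, which binds latent TGF-beta, by 2.35 (SE 0.21). Fn1, fibronectin, fell by 0.73 (SE 0.21), and did not pass without passage 8 replicate 3 (-0.57, adjusted p = 0.111, edgeR).

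The members that rose included Ccn2, a matricellular growth factor, which went from 993, 659 and 937 CPM to 1918, 2076 and 1912 CPM, a rise of 1.19 (SE 0.16, adjusted p = 0.000278, edgeR). The effect was larger in Atm+/+ cells, at 3.06 (SE 0.18), with a difference of -1.87 (SE 0.23, adjusted p = 0.00291, edgeR). Thbs1, thrombospondin 1, rose by 1.14 (SE 0.29) against 4.20 (SE 0.32). The fibulin genes Fbln2 and Fbln5 rose by 0.86 (SE 0.14) and 1.82 (SE 0.30). Dpt, the dermatopontin gene, rose from 7.67, 5.84 and 4.58 CPM to 21.3, 21.4 and 18.9 CPM, by 1.77 (SE 0.34), and its effect of -1.28 (SE 0.33) in Atm+/+ cells had the other sign. The effect was lower without Atm for 11 of 40 members and higher for 2, where 1.97% of all genes had a lower and 2.46% a higher effect. The 11 became 4 when Atm+/+ passage 2 replicate 1 was omitted, 20 when Atm-/- passage 8 replicate 2 was, and 5 with the replicate block. Over all genes 358 had a lower effect in the main fit, and 81, 1173 and 91 with those omissions and the block.

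Contractile genes of smooth muscle had lower passage effects in Atm-/- than in Atm+/+ cells. Of 17 tested, 2 (11.8%) fell, 0 rose and 15 did not pass, where 8.25% of all genes fell. The median was -0.28 in Atm-/- and 1.29 in Atm+/+ cells. Smtn, a smooth muscle cytoskeletal gene, and Myh11 were the 2 that fell. Myh11, the smooth muscle myosin heavy chain, was at 376, 321 and 363 CPM and then at 112, 199 and 133 CPM, and fell by 1.26 (SE 0.23, adjusted p = 0.00198, edgeR). In Atm+/+ cells it went from 94.3, 111 and 67.9 CPM to 642, 527 and 684 CPM, an effect of 2.76 (SE 0.24), so the order of the genotypes at passage 8 was the reverse of that at passage 2. The difference of -4.02 (SE 0.33, adjusted p = 0.000184, edgeR) held in all 27 alternative fits. Acta2, the alpha actin that defines myofibroblasts, went from 6276, 4999 and 6329 CPM to 4255, 5020.0 and 4922 CPM, a change of -0.31 (SE 0.15) that did not pass (adjusted p = 0.205, edgeR), against 1.18 (SE 0.16) in Atm+/+ cells. Tagln, the actin-binding protein transgelin, had effects of -0.31 (SE 0.16) and 1.29 (SE 0.16), and Lmod1, a nucleator of actin filaments, of -0.15 (SE 0.19) and 2.52 (SE 0.20). For 10 of 17 genes the effect was lower without Atm, 0 being higher, where 1.97% of all genes had a lower and 2.46% a higher effect. The 10 ran from 8 to 14 when 1 library was left out, while the 358 genes with a lower effect over all genes ran from 55 to 2297. Without passage 8 replicate 3, 5 of the 17 fell in Atm-/- cells.

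Genes of the senescence-associated secretory phenotype moved both ways. Of 56 tested, 16 (28.6%) fell, 5 (8.93%) rose and 35 did not pass, where 8.25% of all genes fell and 4.76% rose. The median was -0.46. The counts were 8 rising and 15 falling without passage 8 replicate 3, with a median of -0.296. Csf1, the growth factor of macrophages, was at 448, 335 and 301 CPM at passage 2 and at 2727, 2196 and 1890.0 CPM at passage 8, and rose by 2.65 (SE 0.22, adjusted p = 6.5e-06, edgeR). Timp2, an inhibitor of matrix metalloproteinases, went from 1226, 1064 and 999 CPM to 4954, 3475 and 5766 CPM, a rise of 2.11 (SE 0.25, adjusted p = 8.1e-05, edgeR). The passage effect on Timp2 was higher in Atm-/- than in Atm+/+ cells, by 1.57 (SE 0.34, adjusted p = 0.0262, edgeR), a call lost in 7 of 15 fits without 1 library and with the replicate block (adjusted p = 0.0621). Across the list 11 members had a lower and 2 a higher effect without Atm, where 1.97% and 2.46% of all genes had. The 11 became 1 when Atm+/+ passage 8 replicate 3 was omitted, 20 when Atm-/- passage 8 replicate 2 was, and 5 with the block. Over all genes 358 had a lower effect in the main fit, and 55, 1173 and 91 with those omissions and the block. Ptgs2, the inducible cyclooxygenase, and Igfbp6 and Igfbp2, which bind insulin-like growth factors, rose by 1.5 (SE 0.27), 1.45 (SE 0.29) and 2.12 (SE 0.34).

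Igfbp5, another binding protein of this family, fell from 941, 1110.0 and 1123 CPM to 57.9, 72.8 and 46.3 CPM, by 4.16 (SE 0.27, adjusted p = 2.3e-06, edgeR). Igfbp3 and Igfbp4 fell by 3.5 (SE 0.53) and 2.22 (SE 0.36), so members of 1 family moved in both directions. Il6, the cytokine most used as a marker of this phenotype, was at 222, 242 and 259 CPM and then at 25, 107 and 37.2 CPM. Every passage 8 library lay below passage 2, replicate 2 nearest, and it fell by 2.09 (SE 0.52, adjusted p = 0.0167, edgeR). In edgeR this did not pass without passage 2 replicate 3 (adjusted p = 0.0538), passage 8 replicate 1 (0.0557) or passage 8 replicate 3 (0.0537). The macrophage elastase gene Mmp12 and the gelatinase gene Mmp9 fell by 6.84 (SE 0.63) and 9.23 (SE 0.54), and Il1a and Il1b were at 0 in every passage 8 library. These genes are expressed by macrophages, whose marker sum moved with them from 1080 to 1740 CPM down to 44.8 to 61.9 CPM, and its part in their fall was not tested.

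Of 23 chemokine ligand genes 13 (56.5%) fell and 0 rose, 10 not passing, with a median of -2.99, where 8.25% of all genes fell. Macrophage markers fell beside them, from 1740, 1160 and 1080 CPM to 48.3, 61.9 and 44.8 CPM in sum, and their part in the fall of this list was not tested. Cxcl14, a chemokine made by fibroblasts and epithelium, went from 1117, 1029 and 1183 CPM to 24.7, 132 and 41.3 CPM and fell by 4.07 (SE 0.48, adjusted p = 8.9e-05, edgeR). Ccl11, the eosinophil attractant eotaxin, fell from 38, 25.9 and 28.7 CPM to 1.11, 2.18 and 1.49 CPM, by 4.27 (SE 0.30). The phagocyte chemokine genes Ccl6 and Ccl9 fell by 6.77 (SE 0.67) and 4.14 (SE 0.38). Ccl2 and Cxcl1, attractants of monocytes and neutrophils, did not pass at 0.21 and -0.58, and neither did Cxcl12 at -0.51. The median effect of the list in Atm+/+ cells was -2.21. For 2 of 23 genes the effect was lower and for 1 higher without Atm, where 1.97% and 2.46% of all genes had such effects. Without passage 8 replicate 3, 1 chemokine gene rose.

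Genes of growth factor pathways were lower or did not pass. Of 30 PDGF, IGF, FGF and Wnt signalling genes 11 (36.7%) fell and 0 rose, 19 not passing, with a median of -0.45. The shares over all genes were 8.25% lower and 4.76% higher. Among ligands, Wnt11 went from 21.4, 22.1 and 20.6 CPM to 1.66, 2.67 and 3.16 CPM, and fell by 3.12 (SE 0.30, adjusted p = 1.7e-05, edgeR), and Wnt4 fell by 3.75 (SE 0.42). The IGF ligand gene Igf1 fell by 0.79 (SE 0.16), and Pdgfb, a ligand made by endothelium, by 5.11 (SE 0.64) beside the endothelial sums. Among inhibitors, the secreted Wnt antagonist genes Sfrp2 and Frzb fell by 4.37 (SE 0.56) and 2.32 (SE 0.35). The receptor gene Igf1r did not pass at 0.40, nor did Fgfr1 at -0.33, whereas Pdgfra fell as given above. The 0 that rose became 2 without passage 8 replicate 2 or 3 or without Atm+/+ passage 2 replicate 3.

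Some lysosome and autophagy genes rose. Of 43 tested, 10 (23.3%) rose, 4 (9.30%) fell and 29 did not pass, where 4.76% of all genes rose and 8.25% fell. The median of 0.28 turned to -0.133 on log2(TPM + 1), where 4 rose. Hexa, a lysosomal hexosaminidase, was at 432, 355 and 336 CPM and then at 691, 801 and 1275 CPM, and rose by 1.3 (SE 0.24, adjusted p = 0.00214, edgeR). Ctsk, a collagen-degrading cathepsin, rose by 1.28 (SE 0.21), from 103, 89.9 and 76.4 CPM to 298, 218 and 137 CPM, and Gaa, the acid glucosidase, by 0.85 (SE 0.15). The autophagy receptor gene Sqstm1 rose by 0.55 (SE 0.14). The 4 that fell were Ctss, Atp6v0d2, Cd68 and Ctsh, of which Cd68 is also in the macrophage list, and Ctss went from 45.3, 31.8 and 28.2 CPM to 0.349, 0.321 and 0 CPM. Lamp1 and Ctsb did not pass, at 0.38 and -0.10. Without passage 2 replicate 3, 6 rose.

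Among 26 genes of the endoplasmic reticulum stress response 8 (30.8%) rose, 1 (3.85%) fell and 17 did not pass. Among all genes 4.76% rose and 8.25% fell. The median of 0.379 was -0.015 on log2(TPM + 1) and -0.018 on log2(TPM + 0.1), where 2 or 3 rose. Ddit3, the transcription factor CHOP, went from 122, 109 and 89 CPM to 249.5, 241 and 589 CPM and rose by 1.76 (SE 0.30, adjusted p = 0.00141, edgeR), or by 1.23 without passage 8 replicate 3, its highest library. The chaperone gene Hsp90b1 rose by 0.81 (SE 0.15), and Ppp1r15a, which ends the translation block of this response, by 0.86 (SE 0.15). Hspa5, the central chaperone BiP, did not pass at 0.37 (SE 0.18), and neither did Atf4 at -0.09. The fall of Xbp1 by 0.54 (SE 0.16) was lost in 12 of 15 fits without 1 library. Without passage 2 replicate 3, 5 of the list rose, and without passage 8 replicate 3, 12 rose and 0 fell in edgeR.

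Interferon-stimulated genes stayed near the background of all genes. Of 58 tested, 4 (6.90%) rose, where 4.76% of all genes did, 0 fell and 54 did not pass, with a median of 0.06 that was -0.31 on log2(TPM + 1), -0.012 without passage 2 replicate 3 and -0.09 without passage 8 replicate 2. Isg15, a ubiquitin-like antiviral protein, was at 285, 348 and 251 CPM at passage 2 and at 208, 360.4 and 271 CPM at passage 8. The libraries overlapped, with a log2 fold change of -0.07 (SE 0.22, adjusted p = 0.857, edgeR). Bst2, the membrane tether tetherin, rose from 743, 711 and 565 CPM to 1164, 1106 and 1825 CPM, by 1.02 (SE 0.25, adjusted p = 0.0133, edgeR), and Oas2, which makes the activator of RNase L, by 1.44 (SE 0.39). Ifit3 and Ifi27 rose by 0.92 (SE 0.27) and 0.72 (SE 0.17), and Ifit3 did not pass without passage 8 replicate 3 (0.90, adjusted p = 0.0593, edgeR). Without passage 2 replicate 3, 0 of the 58 rose in edgeR, and 2 rose without passage 8 replicate 2. Without Atm+/+ passage 2 replicate 3, or without passage 8 replicate 2, 4 fell. In Atm+/+ cells Isg15 went from 45.3, 40 and 35.5 CPM to 105, 67.2 and 103 CPM, and the difference of -1.26 (SE 0.31, adjusted p = 0.042, edgeR) was lost in 11 of 15 fits without 1 library and with the replicate block (0.0681).

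**Figure D4:**
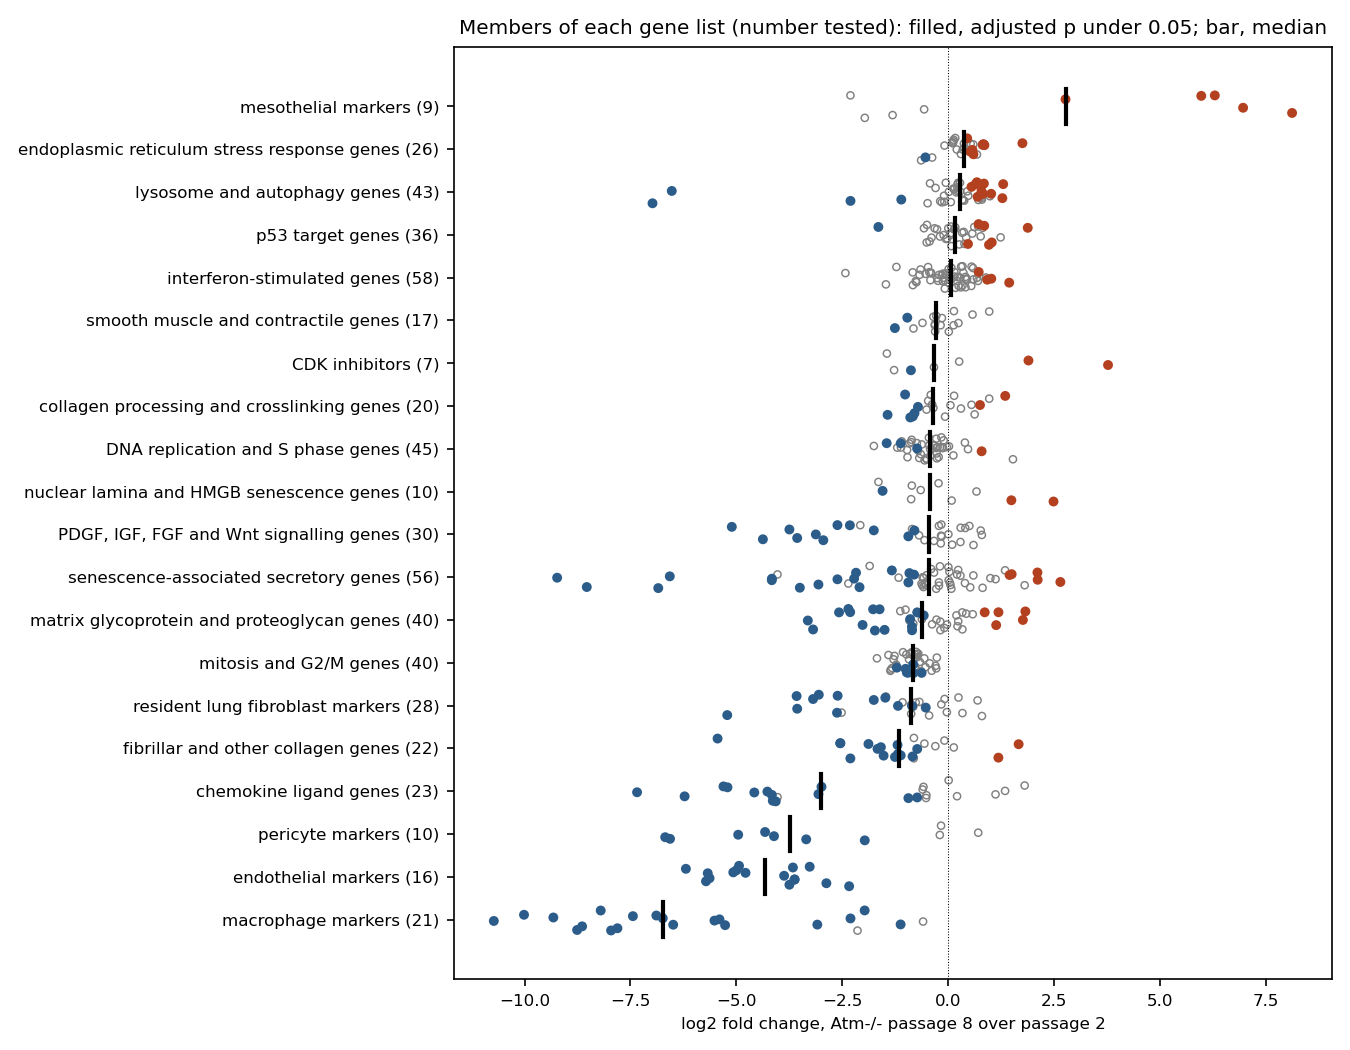
Log2 fold change from passage 2 to passage 8 in Atm-/- cells for every tested member of 20 gene lists (number tested in brackets), filled red or blue where the edgeR adjusted p was under 0.05 and open otherwise, with a black bar at the list median. Medians run from -6.74 for macrophage markers to 2.77 for mesothelial markers, and collagens lie at -1.15.

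Single genes with the largest changes came from 1196 genes that met every part of the naming rule, 563 higher and 633 lower. The 14 highest ran from 3.30 to 6.97 on the log2 scale, and the next gene lay at 3.21. Crct1, a protein of the cornified envelope region, was at 0.969, 0.762 and 0.355 CPM and then at 128, 44.5 and 90 CPM, and rose by 6.97 (SE 0.68, adjusted p = 2.1e-05, edgeR). Prl3a1, a member of the placental prolactin family, went from 6.76, 3.96 and 4.23 CPM to 189, 141 and 271 CPM and rose by 5.33 (SE 0.39), against 5.38 (SE 0.42) in Atm+/+ cells. The homeobox gene Irx1 rose by 4.92 (SE 0.70), the serine protease gene Klk8 by 4.61 (SE 0.55) and the integrin-like gene Itgbl1 by 4.03 (SE 0.51).

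Efemp1, the matrix protein fibulin 3, was the most abundant gene of this group at 149, 143 and 100.4 CPM at passage 2 and 1076, 965 and 3759 CPM at passage 8. Replicate 3 stood far above the other passage 8 libraries, and the rise of 3.89 (SE 0.52) was 2.99 without it. Its difference from Atm+/+ cells of 3.17 (SE 0.67, adjusted p = 0.0257, edgeR) was lost in 7 of 15 fits without 1 library. S100a4, a calcium-binding protein used as a fibroblast marker, went from 33.6, 15.7 and 16.4 CPM to 265, 129.7 and 498 CPM, a rise of 3.76 (SE 0.64, adjusted p = 0.0014, edgeR), with 0.01 (SE 0.58) in Atm+/+ cells. Acta1, the skeletal muscle actin, rose by 3.35 (SE 0.66) and was at 193 CPM in passage 8 replicate 1 but 21.7 CPM in replicate 2. Il1rl1, the receptor of interleukin 33, rose by 3.52 (SE 0.89), at 78.8, 18.8 and 6.84 CPM in passage 8, and this edgeR call was lost without passage 8 replicate 1 (adjusted p = 0.1003) and without passage 2 replicate 1 (0.0598), 2 (0.0725) or 3 (0.0849) and with the replicate block (0.0572). Tmem151a, a membrane protein gene, went from 4.46, 3.56 and 3.22 CPM to 60.6, 24.8 and 38 CPM and rose by 3.46 (SE 0.35), with a difference from Atm+/+ cells of 2.90 (SE 0.47, adjusted p = 0.0104, edgeR) in every alternative fit. Klra4, a lectin-like receptor, Elobl and the sulfotransferase gene Sult4a1 rose by 3.91 (SE 0.44), 3.36 (SE 0.61) and 3.30 (SE 0.55).

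The 14 lowest ran from -8.44 to -5.26, and the next gene lay at -5.12. Pf4, a platelet and macrophage chemokine, went from 163, 81.6 and 77.7 CPM to 0.291, 0.417 and 0.0877 CPM and fell by 8.44 (SE 0.67, adjusted p = 4.9e-06, edgeR). Arg1, the arginase of alternatively activated macrophages, went from 127, 83.4 and 70.7 CPM to 0.262, 0.642 and 0 CPM and fell by 8.00 (SE 0.68). Mmp12, Ccl6, Lyz1, Lyz2, Wfdc17 and Laptm5, which macrophages or other leukocytes express, and Robo4, Cdh5 and Dll4, which endothelium expresses, made up 9 more. Laptm5 was higher in replicate 3 than in the other passage 8 libraries, and its log2 fold change of -5.27 (SE 0.83) was -7.07 without that library. Adamtsl2, a fibrillin-binding matrix gene that lung fibroblasts express, went from 77.5, 77.2 and 110.2 CPM to 0.32, 1.35 and 0 CPM, and fell by 7.07 (SE 0.63, adjusted p = 1.1e-05, edgeR). Fxyd6, a modulator of the sodium pump, was at 592, 757 and 704 CPM and then at 3.78, 18.4 and 23.9 CPM, and fell by 5.49 (SE 0.53). Col15a1 completed the group.

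**Figure D5:**
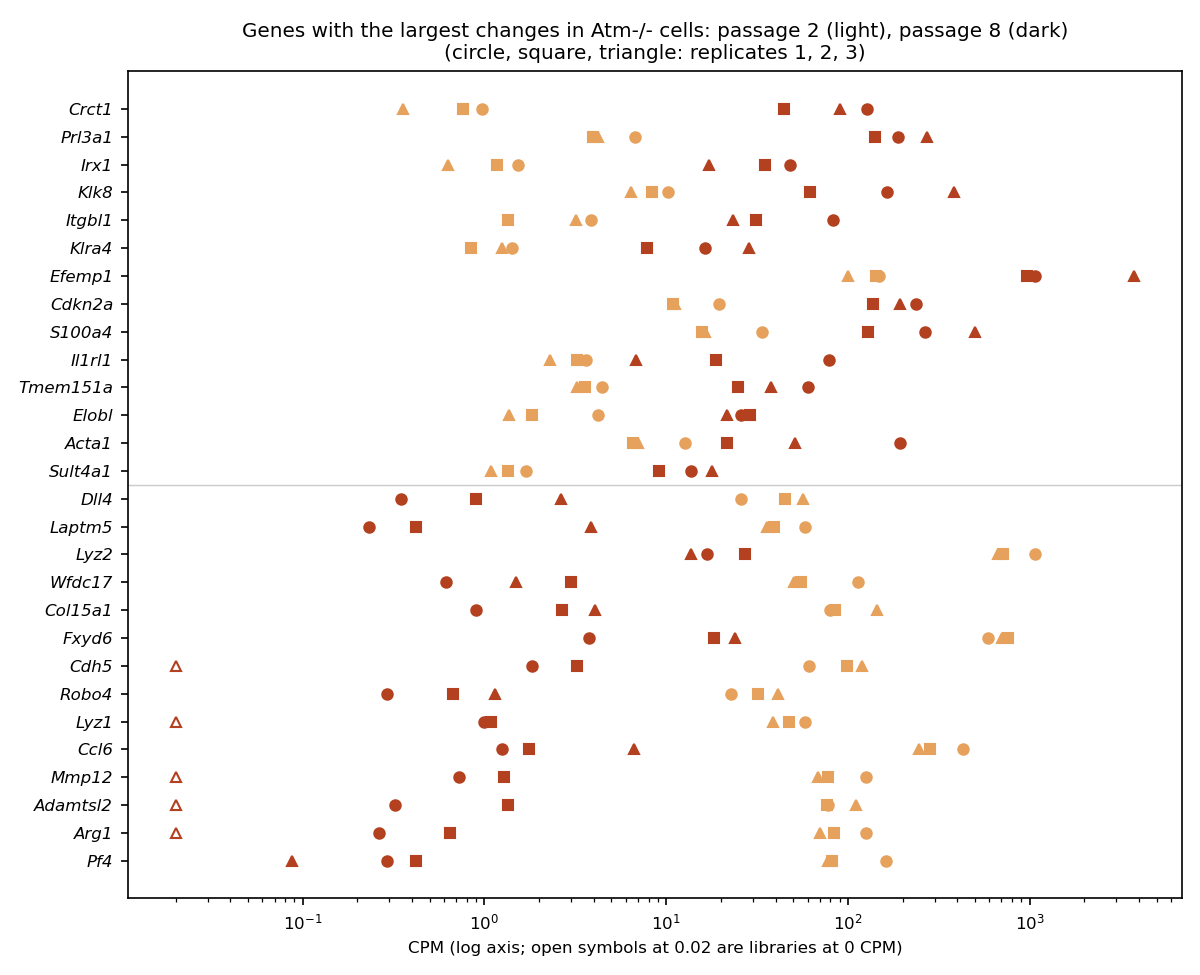
CPM (log axis) of the 14 genes with the largest rises and the 14 with the largest falls in each Atm-/- library, light for passage 2 and dark for passage 8, with open symbols at 0.02 for libraries at 0 CPM. Only genes with a gap between the passages could enter this group. Crct1 lay at 0.355 to 0.969 CPM against 44.5 to 128 CPM, and Pf4 at 77.7 to 163 CPM against 0.0877 to 0.417 CPM.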

How the data were processed

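RNA was measured in 15 libraries, 3 a group, with the TruSeq kit per the labels' protocols. The authors deposited counts per gene, made with featureCounts on mm10 and SAMtools 1.3.1 per the submitters' processing notes, and a table of TPM whose computation, like the aligner, strandedness and annotation, is not given in the sources used here. Reads of overlapping or antisense genes may therefore not be told apart. A further deposited TPM table of fewer genes was not used. Of 48440 genes, 48058 matched GENCODE vM21 by identifier.

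From the counts, edgeR 4.0.16 in R 4.3.3 (filterByExpr, TMM, robust quasi-likelihood) fitted 1 mean a group over all 15 libraries, which share 1 estimate of spread. The contrasts were passage 8 minus passage 2 in Atm-/- cells, and that minus the same in Atm+/+ cells, with Benjamini-Hochberg adjustment over all genes tested and a threshold of 0.05. Every adjusted p in the text is from edgeR unless another tool is named. SE are of the log2 fold change. Tested on simulated data for the Atm-/- contrast over 18167 genes, the fit recovered 42% of 2-fold and 80% of 4-fold changes with 10 false calls. Apart from the planted changes, each gene was simulated with the same mean and spread in all libraries, at their real sizes. The low complexity of passage 8 replicate 3 was not simulated, nor were changes in the least expressed genes. Recovery in the real data may therefore differ. Replicates are separate strains, but nothing says whether strains came from separate mice, so p-values measure the spread between these cultures. Alternatives were DESeq2 1.42.0, its size factors in edgeR, other filters, limma 3.58.1 on log2(TPM + 1) and log2(TPM + 0.1), voom quality weights, thinning to equal depth, a fit of only the groups compared, a replicate block, and libraries left out. Promoters were taken from RefSeq (GRCm38.p6), which had an entry for 78 of 106 named genes, as the 250 bases before each start.

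The members and gene lists were chosen with earlier results of these data known, and which lists to describe was settled after their values were seen. Named genes were the 14 with the largest change each way among those with an adjusted p under 0.05 with and without passage 8 replicate 3, a mean log2 CPM of at least 2, no overlap of libraries and no predicted or clone-based symbol, plus up to 3 members with the lowest p per list and direction, and defining members. Other list members were named after their values were seen. In addition 1 gene was left out of the lists and is not reported here. A bound for genes at 0 in a group used 3 counts over the group as the floor.

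Pairing was checked by correlating deviations from group means. Same-numbered Atm-/- libraries gave -0.045, 0.19 and 0.032, and of the passage 8 libraries only replicate 2 correlated best with its own number. The numbers come from the sample titles, and Xist was high in both replicate 3 libraries alone.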

Additional observations from a re-analysis of the deposited data

Results flagged for a closer look

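For 21 of 106 named genes the passage effect differed between Atm-/- and Atm+/+ cells, 7 with a higher and 14 with a lower effect without Atm, where 4.43% of all genes differed. Values are the Atm-/- minus the Atm+/+ log2 fold change, each with an adjusted p under 0.05 in edgeR. Many of these genes were named because they changed in Atm-/- cells, which enters the difference.

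The differences in Bmp1 (-1.08), Ccn2 (-1.87), Col1a1 (-2.28), Col1a2 (-1.78), Myh11 (-4.02), Postn (-3.35) and Tmem151a (2.9) held in all 27 alternative fits. Of these, the matrix genes Col1a1, Col1a2 and Bmp1 and the contractile gene Myh11 fell in Atm-/- cells, whereas Ccn2 rose in Atm-/- cells by less than in Atm+/+ cells.

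Other genes lost the call in part of the 15 fits that left out 1 library. Pdgfra (-1.65) lost it in 4 fits, and Cd34 (3.33), Col4a5 (-1.6), Ddit4 (-2.69), Igfbp5 (-1.65) and Marco (-3.48) in 5. Efemp1 (3.17) and Timp2 (1.57) lost it in 7, Npnt (-2.54) in 8 and S100a4 (3.76) in 9. Cdkn2a (2.38), Cdkn2b (1.19), Isg15 (-1.26) and Plk2 (-1.12) lost it in 11. Marco stood beside the macrophage sums given above, and Cd34 beside the endothelial sums, and the part of those cells was not tested.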

How the results depend on the processing

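The 2362 genes called between passages became 3589 with DESeq2, 868 in a fit of only the groups compared, 4487 with voom quality weights and 5026 without passage 8 replicate 3 of Atm-/- and passage 2 replicate 3 of Atm+/+ cells. Those 2 libraries had the fewest genes detected at equal depth. Leaving out 1 library gave 1476 (passage 2 replicate 3 of Atm-/-) to 3544 (passage 2 replicate 3 of Atm+/+), and 1532 without passage 2 replicate 2 of Atm-/-. The 804 genes whose passage effect differed between genotypes became 3472 with DESeq2, 518 with no filter, 1298 with the strict filter, 120 in a fit of only the groups compared, 416 on log2(TPM + 0.1), 6979 with voom quality weights, 2556 without those same 2 libraries and 268 without Atm-/- replicate 3 at both passages. Leaving out 1 library gave 79 to 4600, and 432 without passage 2 replicate 3 of Atm+/+ cells. The cause of these shifts was not tested, beyond the fewer samples of the fits with libraries left out or groups dropped. With the replicate block 1815 genes were called between passages, 579 higher and 1236 lower, and 144 differed between genotypes. Among named genes the block ended the passage call of Clspn, E2f2 and Il1rl1 and 10 calls of a difference, those of Cd34, Cdkn2b, Col4a5 (adjusted p = 0.0831, edgeR), Efemp1 (0.0754, edgeR), Isg15, Marco, Npnt, Plk2, S100a4 (0.0911, edgeR) and Timp2. On log2(TPM + 1) the passage calls of Col4a5, Ctsk, E2f1, Fbln2, Fbln5, Hmga1, Hsp90b1, Ifi27, Il1rl1, Plk2, Ppp1r15a and Xbp1 were lost in limma. On log2(TPM + 0.1) Oas2 was lost as well, while Hsp90b1 passed. Over all alternatives the log2 fold changes of 106 named genes gave 2735 values on the same side of the threshold, 112 no longer past it, 5 newly past it and 7 of the uncalled genes Atm, Cdkn1a and Isg15 with the other sign, and 0 called values turned sign. Where a list of the report had 0 members called in a direction by edgeR, 0 to 5 had an unadjusted p under 0.05 in it between passages and 0 to 6 for the difference, and DESeq2 called 0 to 4 and 0 to 3. With all libraries thinned to the shallowest, 16118 genes could be tested and 2273 were called between passages. Among genes described above, the fit of only the groups compared ended the passage calls of Acta1, Bst2, Bub1b, Cdkn1b, Clspn, Ctsk, Ddit3 and Ddit4. It also ended those of E2f1, E2f2, Hmga1, Hmgb3, Hsp90b1, Ifi27, Il1rl1, Il6, Oas2, P3h1, P4ha3, Plk2, Tyms and Xbp1. Without Atm-/- replicate 3 at both passages, Bst2, Bub1b, Clspn, Ddit4, E2f1, E2f2, Hmgb3, Ifi27, Il6, Oas2 and Xbp1 did not pass.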

Other observations

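Markers of further cell types were followed as summed CPM. Counts of members that passed stand beside 4.76% of all genes that rose and 8.25% that fell. Adipocyte markers stood at 226, 210 and 253 CPM in Atm-/- passage 2 and at 55.4, 102 and 111 CPM in passage 8, without overlap, and 3 of 5 tested fell. Cartilage and bone markers went from 829, 794 and 780 CPM to 329, 240 and 103 CPM, and 2 of 8 tested fell. Melanocyte and Schwann cell markers went from 31, 22.6 and 25.2 CPM to 50.3, 36.1 and 75.8 CPM, where of 6 tested 1 rose and 1 fell. Leaving out passage 8 replicate 3, 1 of them rose and 2 fell, and their median of 0.288 became -0.261. Skeletal muscle markers stood at 7.55 to 14 CPM and then at 196, 22.7 and 54.7 CPM, where the muscle actin Acta1 made up most of the sum, and lymphocyte markers at 3.53 to 4.56 CPM and at 0.614 to 1.25 CPM.

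Other lists were not described above. Among all genes tested 4.76% rose and 8.25% fell, and 1.97% had a lower passage effect without Atm. Of 21 immediate early genes 4 rose and 0 fell in edgeR, with a median of 0.453, and 2 or 1 rose without passage 2 replicate 1 or 2. Of 23 YAP and TAZ target genes 6 rose and 1 fell, with a median of 0.338, and 2 fell without passage 8 replicate 2 or Atm+/+ passage 2 replicate 2 or 3. Of 29 NF-kB subunit, feedback and target genes 8 fell and 0 rose, with a median of -0.543, beside the fall in macrophage markers whose part was not tested. Leaving out passage 8 replicate 3, 2 rose and 9 fell. Of 26 glycolysis and hypoxia response genes 5 rose and 2 fell, and the passage effect was lower without Atm for 8 of them, or for 3 to 12 without 1 library. Over all genes it was lower for 358, or for 55 to 2297 without 1 library. Leaving out passage 8 replicate 3, 8 rose and 1 fell, and 8 rose without Atm+/+ passage 2 replicate 3. The 2 that fell became 1 in 12 of 15 fits without 1 library. Of 13 mitochondrially encoded protein genes 0 were called in either direction in edgeR, by DESeq2 or at an unadjusted p under 0.05. Against the mean of passage 2 their median stood at 0.401, 0.179 and -1.843 in passage 8 replicates 1, 2 and 3. The median log2 fold change of -0.08 became 0.293 without replicate 3.

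Over 7671 autosomal genes, the chromosome medians of log2 CPM relative to passage 2 lay between -0.08 and 0.07 in passage 8 replicate 1, between -0.04 and 0.04 in replicate 2 and between -0.12 and 0.11 in replicate 3.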
